A study of Mus musculus with 7 samples.

Results

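The R4 family of RGS genes was examined in mesenteric artery, the small-artery bed that feeds the intestine, of mice with disturbed PPARγ signalling in smooth muscle. The members are rows of the array that the platform annotation ties to exactly 1 gene symbol, that symbol being Rgs1, Rgs2, Rgs3, Rgs4, Rgs5, Rgs8, Rgs16 or Rgs18. They number 9 rows of 23332, for 8 genes, because Rgs5 has 2 rows. Artery came from 3 male transgenic mice, called P467L here, and from 4 non-transgenic littermates. The transgene encodes human PPARγ with the dominant-negative P467L change and is driven by the smooth muscle myosin heavy chain promoter. That promoter directs expression to smooth muscle, so other cells of the vessel are not its targets. Sex of the littermates, age and strain are not stated in these sources. Each array held RNA of 1 mouse, amplified from about 50 ng. As a ligand-activated transcription factor PPARγ is best known for lipid handling, and Rgs5 has been described as one of the genes it controls in arterial muscle.

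RGS proteins are brakes on G protein signalling: they speed the hydrolysis of GTP by the active Gα subunit and so end the signal of a receptor. R4 members are small proteins made of little more than the RGS domain, and they act mainly on Gαi and Gαq, the classes used by vasoconstrictor receptors. Rgs5 is abundant in pericytes and arterial smooth muscle, Rgs4 is known from heart, brain and muscle, and Rgs2 is selective for Gαq, with raised blood pressure in mice that lack it. In mammals Rgs4, Rgs5 and Rgs16 proteins are removed through the N-degron pathway, which acts on the protein and not on the transcript.

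Of these genes, 7 lie on chromosome 1 and Rgs3 lies on chromosome 4. Rgs5 and Rgs4 are next to each other, with 0 other genes of the RefSeq table between them, on opposite strands. The 250 bases upstream of the transcript start are shown for this pair, since they are the members whose genotype groups did not overlap. The sequences come from RefSeq on GRCm38.p6, read 5′ to 3′ on the strand of the gene, and capitals mark a CCAAT box (CCAAT, or ATTGG on the other strand) or a TATA box (TATAAA, either strand).
Rgs5, chr1:169655251-169655500, plus strand: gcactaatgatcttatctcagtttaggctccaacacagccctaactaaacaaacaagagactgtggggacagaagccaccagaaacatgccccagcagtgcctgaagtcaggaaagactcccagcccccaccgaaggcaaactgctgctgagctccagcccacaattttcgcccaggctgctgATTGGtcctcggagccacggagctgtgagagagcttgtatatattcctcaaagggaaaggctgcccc
Rgs4, chr1:169747643-169747892, minus strand: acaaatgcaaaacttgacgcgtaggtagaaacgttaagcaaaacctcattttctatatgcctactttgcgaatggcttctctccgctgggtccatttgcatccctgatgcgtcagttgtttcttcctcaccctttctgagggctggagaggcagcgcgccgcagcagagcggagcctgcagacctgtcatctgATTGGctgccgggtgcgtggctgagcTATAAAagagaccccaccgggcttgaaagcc

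Both windows hold 1 CCAAT match, which starts 67 bases before the start in Rgs5 and 57 before it in Rgs4. Such a match is common: 33.8% of 32851 mouse promoter windows of the same length hold one, as do the windows of Rgs2 and Rgs16 and 2 of the 3 windows of Rgs8. Rgs4 also holds TATAAA, found in 12.4% of windows, 31 bases before its start. Both windows of Rgs3 hold it too, 100 and 177 bases before their starts. Those exact letters are not in the Rgs5 window, and variants of the TATA box were not searched. The nuclear receptor half-site AGGTCA (14% of windows), the direct repeat AGGTCANAGGTCA bound by PPARγ with its RXR partner (0.0335%) and the CArG box of smooth muscle genes (1.47%) were searched on both strands, and these letters are not in either window. A letter match is no evidence of binding, and regulatory sites farther away were not searched.

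No R4 row passed the test between genotypes. Values are log2 expression, so a difference of 1 is a doubling, and differences are P467L minus non-transgenic. limma, a linear model that shares information on the spread across rows, called 0 of 9 R4 rows and 0% of all rows in either direction at an adjusted p of 0.05. At an unadjusted p of 0.05 it listed 2 of the 9 rows as lower, both of Rgs5, where 1.56% of all rows were lower and 3.1% differed in either direction. In 3 rows, those of Rgs5 and Rgs4, every P467L mouse was below every non-transgenic mouse, which held for 1.28% of all rows, while 2.57% had separate groups in either direction. In the other 6 rows the groups overlapped. The median difference over the 8 genes was -0.0088, beside -0.0025 over all rows. With 3 mice against 4, the exact permutation test that doubles the smaller tail can go no lower than 0.0571, which it gave for both Rgs5 rows and Rgs4. Counting the same 35 splits by absolute difference, a rule added after the data were seen, gave an exact permutation p of 0.0286 for the brighter Rgs5 row and for Rgs4, and 0.0571 for the dimmer row.

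Rgs5 had the largest difference of the family, in both of its rows. The brighter row was at 10.28, 10.48 and 9.53 in P467L artery, against 11.44, 10.94, 11.09 and 11.14 in non-transgenic artery. All P467L mice lay below all littermates, and P467L replicate 3 was the lowest. The means were 10.10 ± 0.50 (SD, n = 3) and 11.15 ± 0.21 (SD, n = 4), a 2.08-fold lower level in P467L artery. The difference was -1.06 with a standard error of 0.25 and a 95% interval from -1.67 to -0.45 (limma, adjusted p = 1, unadjusted p = 0.00544).

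The dimmer Rgs5 row was at 7.72, 7.68 and 6.88 in P467L artery, against 9.02, 9.06, 8.26 and 9.37 in non-transgenic artery. Again the groups did not overlap and P467L replicate 3 was lowest, while non-transgenic replicate 3 stood below its littermates. The difference was -1.50 with a standard error of 0.33, a 2.83-fold lower mean, and its 95% interval ran from -2.31 to -0.69 (limma, adjusted p = 1, unadjusted p = 0.00389). The exons that each row covers are not stated in these sources. Set against the non-transgenic mean, P467L replicates 1, 2 and 3 differed by -0.87, -0.67 and -1.62 in the brighter row, and by -1.21, -1.25 and -2.05 in the dimmer row. Both rows therefore placed every transgenic mouse below the mean of the littermates, and replicate 3 farthest. Ordered by size among all 23332 rows, the difference of the dimmer row was rank 6 and that of the brighter row rank 29 from the most negative. Means at least 2-fold lower, as in both Rgs5 rows, were found in 0.159% of rows.

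Rgs4, the chromosomal neighbour of Rgs5, was at 8.72, 8.78 and 8.04 in P467L artery, against 9.18, 9.05, 8.82 and 8.96 in non-transgenic artery. The groups did not overlap, but P467L replicates 1 and 2 lay close to the lowest littermate and replicate 3 stood apart. The difference was -0.49 with a standard error of 0.20 and a 95% interval from -0.98 to 0.00092 (limma, adjusted p = 1). Without P467L replicate 3 it was -0.25, with an interval from -0.53 to 0.024. Without the same mouse the Rgs5 differences were -0.77 in the brighter and -1.23 in the dimmer row, with intervals that stayed below 0. That array also had the lowest upper quartile of the 7, 7.10 against 7.17 to 7.29 on the others. After further quantile normalization the differences were -1.02 and -1.52 for the Rgs5 rows and -0.47 for Rgs4. With array weights, 3.54, 0.46 and 0.33 for P467L replicates 1, 2 and 3, they were -0.88, -1.21 and -0.29. The part of the array of P467L replicate 3 in these values was not tested further.

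**Figure D1:**
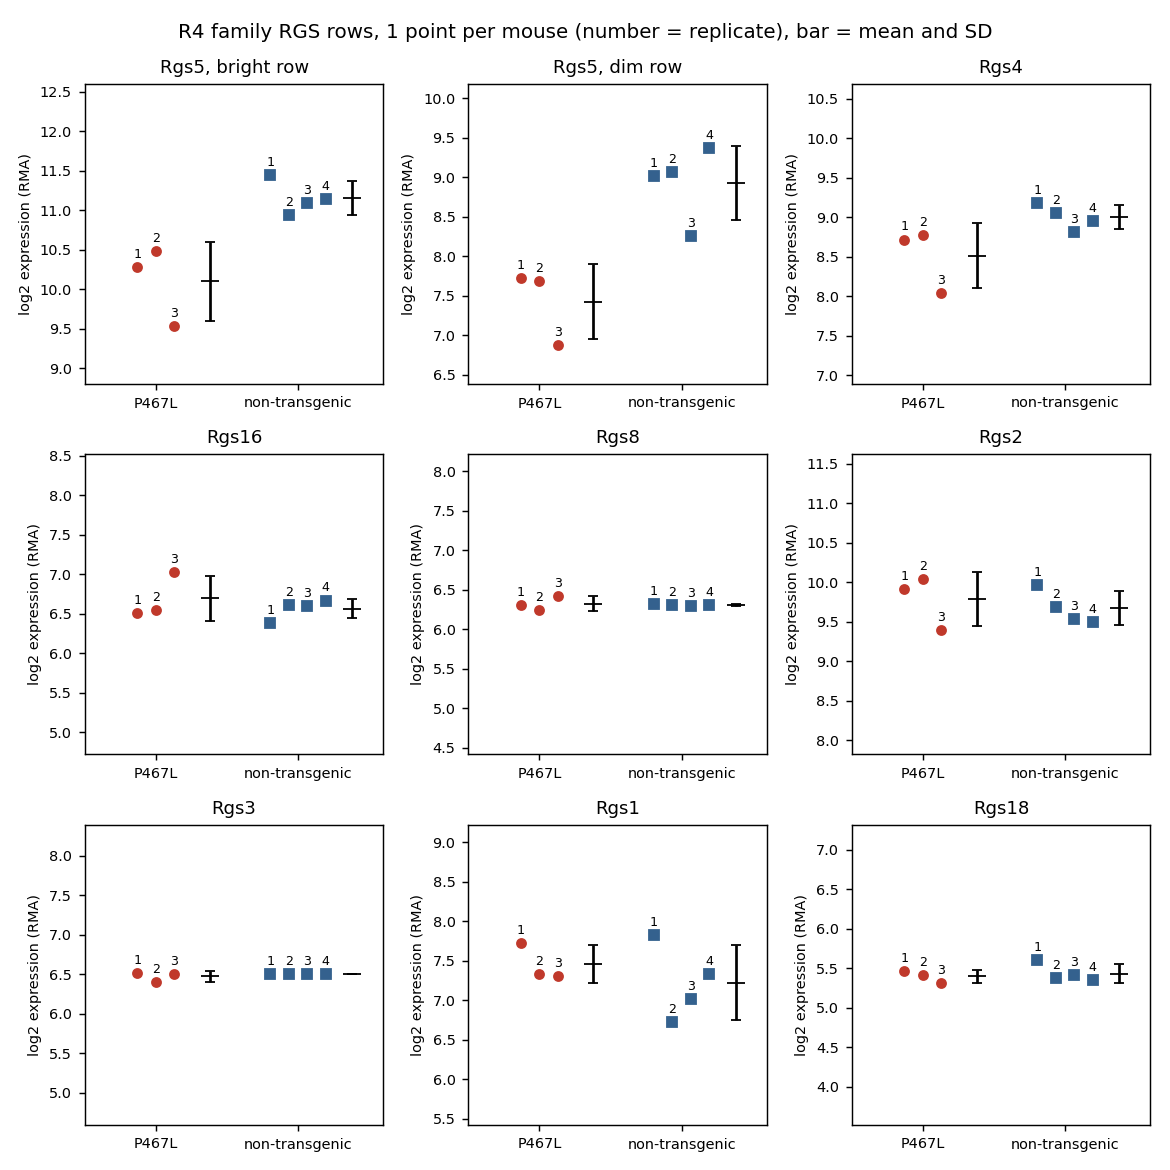
Log2 expression of the 9 R4 rows in each mouse, P467L on the left and non-transgenic on the right of each panel, with the mean and SD as a bar beside the points. Every panel spans the same number of log2 units, and the 2 genotypes are separate in the panels of Rgs5 and Rgs4 and overlap in the other 6.

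**Figure D2:**
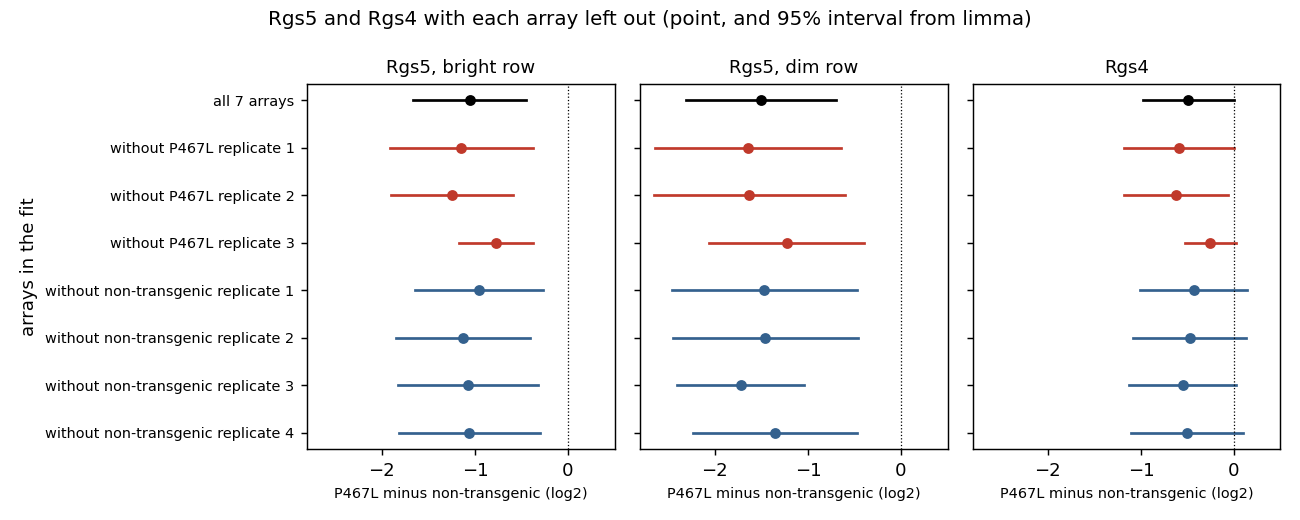
Difference between genotypes of both Rgs5 rows and of Rgs4 with all 7 arrays and with each array left out in turn, as points with 95% intervals from limma. The Rgs5 intervals stay below 0 in every fit, and the Rgs4 difference is smallest, at -0.25, without P467L replicate 3.

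Rgs16, which like Rgs4 and Rgs5 is a short R4 protein with an N-terminal degron, was at 6.51, 6.55 and 7.03 in P467L artery, against 6.39, 6.61, 6.60 and 6.67 in non-transgenic artery. Only P467L replicate 3 lay above the littermates, the mouse that was lowest in Rgs5 and Rgs4. The difference was 0.13 with an interval from -0.23 to 0.49 (limma, adjusted p = 1), and it was -0.038 without that mouse. Rgs8, known mainly from brain, sits beside Rgs16 in the family's order on chromosome 1. It was at 6.31, 6.24 and 6.42 in P467L artery, against 6.32, 6.31, 6.29 and 6.31 in non-transgenic artery, a difference of 0.016 with an interval from -0.10 to 0.13. Non-transgenic mice hardly varied in this row, with an SD of 0.013.

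Rgs2, the member selective for Gαq and a target of the cGMP-dependent kinase, was at 9.92, 10.04 and 9.40 in P467L artery, against 9.97, 9.69, 9.54 and 9.50 in non-transgenic artery. The groups overlapped over most of their range, with P467L replicate 3 again the lowest mouse. The difference was 0.11 with an interval from -0.35 to 0.58 (limma, adjusted p = 1). Rgs3, which exists in long and short forms, was at 6.52, 6.40 and 6.51 in P467L artery, against 6.51 in all 4 non-transgenic mice. With the same value on 5 arrays, the difference was -0.033 and its interval ran from -0.13 to 0.063.

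Rgs1, best known from activated lymphocytes and other leukocytes, was at 7.73, 7.33 and 7.31 in P467L artery, against 7.83, 6.72, 7.01 and 7.33 in non-transgenic artery. Its littermates spread over a wider range than the transgenic mice, with SDs of 0.24 in P467L and 0.48 in non-transgenic artery. The difference of 0.23 had an interval from -0.45 to 0.91 (limma, adjusted p = 1). With P467L replicate 1 left out it was 0.0975, with non-transgenic replicate 1 left out 0.437, and with non-transgenic replicate 2 left out 0.067. Rgs18, known from platelets and their precursors, was at 5.47, 5.41 and 5.31 in P467L artery, against 5.60, 5.37, 5.41 and 5.35 in non-transgenic artery, a difference of -0.036 with an interval from -0.22 to 0.15. Non-transgenic replicate 1 was the highest of its group in Rgs1 and Rgs18, and also in Rgs2, Rgs4 and the brighter Rgs5 row.

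Markers of the blood cells that carry Rgs1 and Rgs18 gave these values. Of 7 measured macrophage markers 7 had higher means in P467L artery, with a median difference of 0.16, and their mean log2 level lay between 6.51 and 6.87 in P467L and between 6.37 and 6.55 in non-transgenic mice. Of 7 lymphocyte markers 5 had higher and 2 lower means, with a level of 5.26 to 5.55 in P467L and 5.28 to 5.52 in non-transgenic mice. Of 4 platelet markers 3 had higher means, with a level of 6.97 to 7.19 in P467L and 6.88 to 7.21 in non-transgenic mice. In these lists 0 members passed limma, and their part in the Rgs1 and Rgs18 values was not tested.

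Across the arrays, rows of this family sat at different places in the distribution. The brighter Rgs5 row, Rgs4 and Rgs2 were above the upper quartile of their array in all 7 mice. Rgs3 and Rgs16 lay between the array median, 6.29 to 6.34, and the upper quartile, and Rgs8 lay close to that median. Rgs18 lay just above the lower quartile of 5.26 to 5.29. Signal also depends on the probes of a row, so no order of transcript abundance is drawn from these places.

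**Figure D3:**
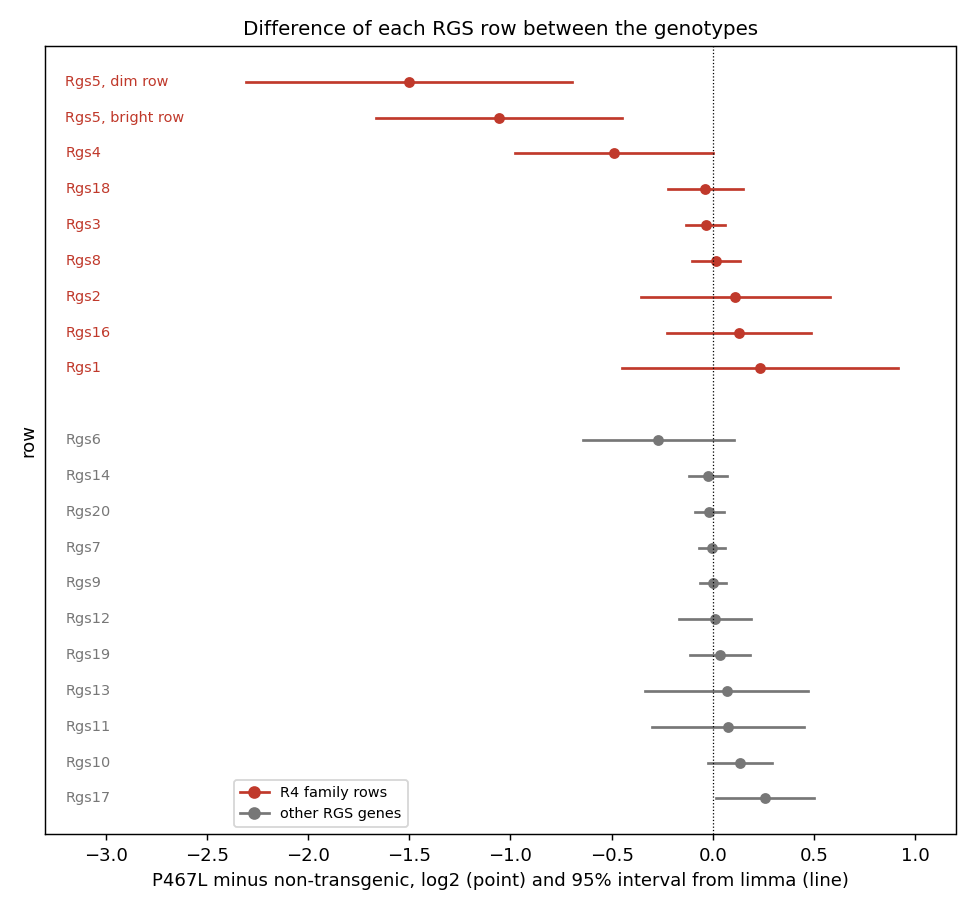
Difference in log2 expression, P467L minus non-transgenic, with 95% intervals from limma for the 9 R4 rows (red, top) and for 11 RGS genes that are not members (grey, bottom). The intervals of both Rgs5 rows lie below 0, that of Rgs4 ends at 0.00092, and the remaining R4 intervals span 0.

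Pericyte and smooth muscle markers were set beside Rgs5, because in whole artery fewer cells of a type and less RNA per cell cannot be told apart. Of 10 measured pericyte markers, Rgs5 not counted, 9 had lower means in P467L artery and 1, Notch3, was at 7.21 in all 7 mice. The median difference of the 10 markers was -0.11, and 0 members passed the test. Their mean log2 level was 6.96 to 7.02 in P467L mice, against 7.14 to 7.23 in non-transgenic mice, with no overlap. Pdgfrb, the PDGF receptor of mural cells, differed by -0.026, and Cspg4, the NG2 proteoglycan, by -0.28. Non-transgenic mice hardly varied in the Pdgfrb row, with an SD of 0.015. Abcc9 and Kcnj8, the 2 parts of the mural KATP channel, differed by -0.21 and -0.14.

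Higd1b, a mitochondrial protein gene known as a pericyte marker, had the largest difference of the list. It was at 6.56, 6.93 and 6.47 in P467L artery, against 7.65, 7.55, 7.40 and 7.36 in non-transgenic artery. The difference was -0.84 with a standard error of 0.13 and no overlap (limma, adjusted p = 1, unadjusted p = 0.000723). That unadjusted p was smaller than the limma values of the Rgs5 rows, 0.00544 and 0.00389. Without Higd1b the median of the remaining 9 markers was -0.090, and their level was 7.01 to 7.08 in P467L and 7.12 to 7.20 in non-transgenic mice. Of 9 smooth muscle markers 9 had lower means, from -0.40 for Myocd, the transcriptional coactivator of contractile genes, to -0.028 for Mylk, myosin light chain kinase. The difference of Myh11, the gene whose promoter was used for the transgene, was -0.093. The smooth muscle level was 9.99 to 10.14 in P467L and 10.14 to 10.35 in non-transgenic mice, where the ranges met. By size alone, the differences of both Rgs5 rows, -1.06 and -1.50, were larger than that of any pericyte or smooth muscle marker measured. That of Rgs4, -0.49, was larger than all but Higd1b's. The part of cell make-up in the Rgs5 and Rgs4 values was not tested.

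**Figure D4:**
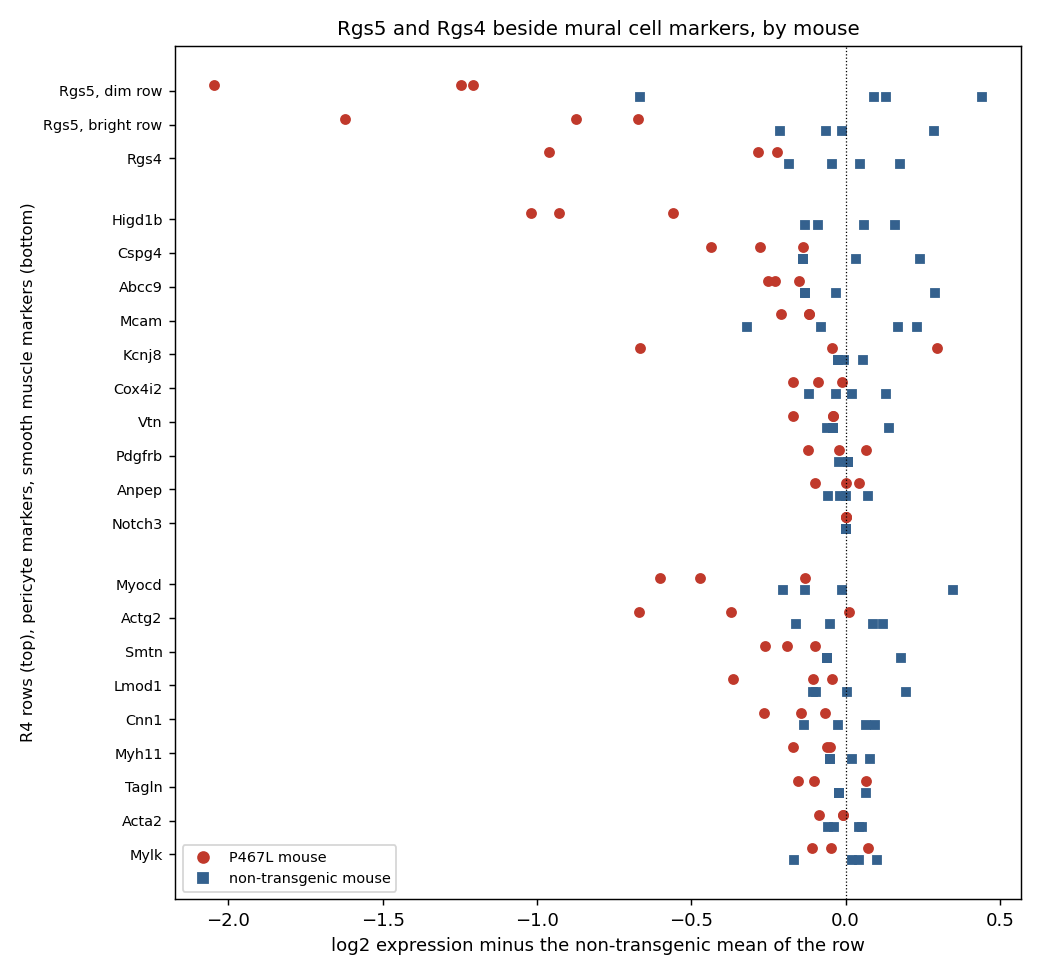
Log2 expression of each mouse minus the non-transgenic mean of the row, for Rgs5 and Rgs4 (top), 10 pericyte markers (middle) and 9 smooth muscle markers (bottom), with P467L mice as red circles above non-transgenic mice as blue squares. The P467L points of Rgs5 reach -2.05, those of Higd1b lie apart from the littermates, and most other markers overlap.

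Fat, fibroblast, endothelial and nerve markers were read in the same way, since whole artery can hold these cells too. Of 9 adipocyte markers 8 had lower means, and non-transgenic replicate 1 stood out with a level of 7.54, against 6.65 to 6.91 in P467L mice and 6.68 to 6.92 in the other littermates. Without that mouse the Rgs5 differences were -0.96 and -1.47. Fibroblast markers had higher means in 6 of 8 cases, and their level was 8.56 to 8.74 in P467L and 8.41 to 8.67 in non-transgenic mice. Endothelial markers (7 of 9 higher, median 0.024) and nerve and Schwann cell markers (4 of 6 higher, median 0.035) had levels that overlapped between genotypes.

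The rows whose pattern over the 7 arrays was most like that of the brighter Rgs5 row were ranked by the mean absolute difference between log2 deviations from the row's own mean. Of 14994 rows with 1 symbol, Higd1b was the closest, with a mean absolute difference of 0.20. The others of the first 5 were Postn, the matrix protein periostin (0.21), Slc1a5, a glutamine carrier (0.22), Ccdc68 (0.24) and Asb4, a SOCS box protein (0.24). Rgs4 ranked 15 with 0.28, and the dimmer Rgs5 row, at 0.34, would have ranked 45. The remaining R4 genes ranked far lower, from 4436 for Rgs18 to 14437 for Rgs1. Because the ranking uses the genotype difference of Rgs5 itself, it is a description and carries no test.

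The 11 measured RGS genes outside the set, which include the R4 gene Rgs13, had a median difference of 0.011, with 6 higher, 4 lower and 1 equal and 0 past the test. Rgs17, of the RZ family that acts on Gαz and Gαi, was at 7.36, 7.57 and 7.22 in P467L artery, against 7.01, 7.21, 7.07 and 7.21 in non-transgenic artery. Rgs10, of the R12 family, was at 7.34, 7.36 and 7.40 in P467L artery, against 7.32, 7.14, 7.14 and 7.33 in non-transgenic artery. Both had separate groups in the higher direction, as did 1.29% of all rows, by 0.26 and 0.13 (limma, adjusted p = 1 for each). Rgs6, of the R7 family, differed by -0.27 with overlapping groups.

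The partners of RGS proteins were then described. Among 11 Gα genes 6 had higher and 5 lower means, and the median difference was 0.0033. Gnaq, which encodes the Gαq that Rgs2 and Rgs5 act on, differed by 0.27 and Gnai2 by 0.032, both with overlapping groups. Of 11 Gβ and Gγ genes 6 had higher means, and Gng2 was at 7.61, 7.38 and 7.66 in P467L artery, against at most 7.22 in non-transgenic artery. That difference of 0.42 came with separate groups (limma, adjusted p = 1, unadjusted p = 0.00322). Separate groups in the higher direction held for 1.29% of all rows.

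Downstream of Gq and G12, 8 of 13 genes had lower, 3 higher and 2 equal means, with a median of -0.074. Plcb4, a phospholipase C that Gαq switches on, was at 7.99, 8.20 and 7.82 in P467L artery, against 8.62, 8.26, 8.41 and 8.23 in non-transgenic artery, a difference of -0.38. Arhgef25, the exchange factor that links Gαq to RhoA, differed by -0.10, and Plcb1 by -0.078. The groups were separate for Plcb4 and Arhgef25, as in 1.28% of all rows in the lower direction, and 0 genes of the list passed limma. Arhgef25 was at 7.33, 7.44 and 7.39 in P467L artery, against 7.51, 7.48, 7.48 and 7.48 in non-transgenic artery.

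Of 21 measured receptors coupled to Gq or Gi, 8 had higher and 13 lower means, the median difference was -0.0475 and 0 passed the test. Avpr1a, the vasopressin receptor of arterial muscle, differed by -0.31, Ednrb, an endothelin receptor, by -0.41 and Cysltr1, a leukotriene receptor, by -0.78, all with overlapping groups. The angiotensin receptor genes Agtr1a and Agtr1b differed by 0.027 and -0.055, both with overlapping groups, and Ednra was not analysed here. Among 6 receptor kinase and arrestin genes, 5 had lower means (median difference -0.026). In the N-degron pathway, 3 of 5 genes had higher and 2 lower means. Ate1, the arginyl transferase of that pathway, differed by 0.021 and Ado, which oxidises the N-terminal cysteine, by -0.22, with overlapping groups in both.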

How the data were processed

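Total RNA, taken up in Trizol and cleaned on a column, was amplified in 2 steps and hybridised as biotin-labelled fragments to Affymetrix mouse exon arrays, 1 mouse per array, per the labels' protocols. The deposited values are log2 expression with 2 decimals, made by the authors with RMA in Affymetrix Power Tools on mm9, per the submitters' processing notes. Versions, probe set level and scan dates are not stated in these sources. RMA as usually run makes array distributions alike and summarises probes by median polish. Ties are frequent: 4671 rows held 1 value on 4 or more arrays. Rows were named by the platform annotation (14996 of 23332 with 1 symbol, 1019 with several, 7317 with none), and 0 other columns of sample values were present.

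All rows were fitted with limma 3.58.1 in R 4.3.3 (lmFit, eBayes, no covariate, no filter) and adjusted over all rows (Benjamini-Hochberg), and the fit was tested on simulated data. The number of arrays limits the precision. The exact two-sided permutation test doubles the smaller tail over 35 splits. For a listed gene with several rows the row of highest mean was used, and 2 listed symbols were updated through RefSeq synonyms (GRCm38.p6). The members, lists and tests were chosen with earlier results of these data known. Named genes are all R4 rows, Pparg, Myh11, 6 listed regulators, up to 3 genes of smallest p per list, and the 5 rows most like Rgs5. Those left without values (such as markers of lists given as counts) were not needed beside a member. Other pericyte and smooth muscle markers, and Agtr1b, were named after their values were seen. Alternatives were further normalization, row filters, moderation settings, array weights, a replicate block and leaving out each array.

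Pparg was at 6.66 ± 0.16 (SD, n = 3) in P467L and 6.78 ± 0.30 (SD, n = 4) in non-transgenic artery. Mouse probes need not bind the human transgene, so this row does not check the genotype labels.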

Additional observations from a re-analysis of the deposited data

How the results depend on the processing

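Under all 16 alternatives limma called 0 R4 rows, and 0 rows over the whole array in either direction, with the smallest adjusted p, 0.166, under array weights. Rows at an unadjusted p of 0.05 numbered 724 of 23332 in the fit reported. The count ran from 354 of the 11664 rows tested with the lowest 50% left out to 2834 of 23332 with array weights. Both Rgs5 rows and Rgs4 kept a negative difference in every alternative. With each array left out in turn the brighter Rgs5 row ran from -1.25 to -0.77, the dimmer row from -1.72 to -1.23 and Rgs4 from -0.62 to -0.25, and under the other 9 settings from -1.06 to -0.88, from -1.52 to -1.21 and from -0.50 to -0.29. The sign of the small differences was less stable: with 1 array left out, Rgs2 ran from -0.015 to 0.305, Rgs3 from -0.055 to 0.005, Rgs8 from -0.0325 to 0.0575, Rgs16 from -0.0375 to 0.2225 and Rgs18 from -0.0725 to 0.02. Rgs1 kept its sign, from 0.067 to 0.437 with 1 array left out and at 0.489 with array weights. Array weights turned Rgs16 to -0.035 and Rgs18 to 0.038. The weights were 3.54 for P467L replicate 1 and 0.33 for replicate 3, and the cause of either turn was not tested. Rgs3 has no value where tied rows were left out and Rgs18 none where the lowest 50% were. An alternative chosen after seeing the data, counting splits by absolute difference, gave an exact permutation p of 0.0286 for the brighter Rgs5 row and for Rgs4, and 0.0571 for the dimmer row, in place of 0.0571 for each.

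The replicate numbers by themselves do not tell whether mice were paired. Deviations from the group means of same-numbered mice correlated across rows at 0.12, -0.20 and -0.09, and not every mouse correlated best with its own number. So few correlations cannot decide whether a pairing exists. With the number as a replicate block the differences were -1.06 and -1.35 for Rgs5 and -0.50 for Rgs4 (limma, adjusted p = 1 for each), and 0 rows were called. Non-transgenic replicate 4 has no P467L mouse of its number, and these differences equal those with that mouse left out.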

Other observations

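On this array 135 genes have more than 1 row, and in 74 of them all rows differed in the same direction. Rgs5 was the 1 gene of these 135 in which all rows had separate genotype groups, and the 1 gene in which all rows had at least 2-fold lower means in P467L artery. This count was made after the Rgs5 values were seen and carries no test. Rows of 1 gene were read from the same RNA, so they are not independent.

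The 6 measured genes that flank the Rgs5 and Rgs4 pair on chromosome 1 had differences between -0.051 and 0.093. Before Rgs5 lie Rxrg, the retinoid X receptor gamma gene (-0.051), Lmx1a (0.081) and Nuf2 (0.045), and after Rgs4 lie Hsd17b7 (0.054), Ddr2, a collagen receptor gene (0.039), and Uap1 (0.093). All 6 had overlapping groups (limma, adjusted p = 1 for each). These genes were chosen by position in the RefSeq table after the Rgs5 and Rgs4 values were seen.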
